A study of Mus musculus with 10 samples.

Results

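Genes of the epicardium, the mesothelial sheet around the heart, and of retinoic acid synthesis were followed in mouse embryonic stem (ES) cells lacking Rybp and in wild type cells along differentiation toward the heart lineage. The genes were listed by name as Aldh1a1, Aldh1a2, Wt1, Bnc1, Tbx18, Tcf21, Upk1b, Upk3b and Msln, and all 9 had an entry among the 36191 gene IDs of the deposited count table. Per the labels, the groups were Rybp null mutant ES cells at day 0, wild type ES cells at day 0, and the cardiac cultures derived from each genotype at days 8 and 14, all on a 129x1 x 129S1 background. Differentiation ran through embryoid bodies made in hanging drops. Each genotype had 1 library at day 0 and 2 libraries at each later day, 10 in all. The labels do not say whether the 2 libraries of a group came from separate differentiations, nor how many clones a genotype stands for, so every p measures only the spread between these libraries.

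Retinoic acid is made from vitamin A: retinol is oxidised to retinaldehyde, and retinaldehyde dehydrogenases, among them the enzymes encoded by Aldh1a1 and Aldh1a2, oxidise that to retinoic acid, which binds nuclear receptors and changes transcription. In the mouse embryo Aldh1a2 is the main such enzyme, and the epicardium is known as a site of its expression. Wt1, Tbx18, Tcf21 and Bnc1 encode transcription factors, of which the first 3 are widely used to mark the epicardium and the cells that leave it to form fibroblasts and mural cells. Upk1b and Upk3b encode uroplakins, membrane proteins first described in bladder urothelium and also made by mesothelium, and Msln encodes mesothelin, a surface protein of mesothelium.

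Promoter windows of 300 bases were found in the RefSeq table (GRCm38.p6) for 6 of the 9 genes, Aldh1a1, Aldh1a2, Bnc1, Tbx18, Tcf21 and Upk3b, with 2 start sites for Aldh1a1. They run from 250 bases before to 50 after the start and are shown for the genes whose levels changed between days, with each CpG in capitals, since the windows differ widely in CpG content. They are, in order, the Aldh1a1 windows at chr19:20492333-20492632 and chr19:20601718-20602017 on the plus strand, Aldh1a2 at chr9:71215539-71215838 on the plus strand, Bnc1 at chr7:81992250-81992549 on the minus strand and Upk3b at chr5:136038246-136038545 on the plus strand.
Aldh1a1, upstream start: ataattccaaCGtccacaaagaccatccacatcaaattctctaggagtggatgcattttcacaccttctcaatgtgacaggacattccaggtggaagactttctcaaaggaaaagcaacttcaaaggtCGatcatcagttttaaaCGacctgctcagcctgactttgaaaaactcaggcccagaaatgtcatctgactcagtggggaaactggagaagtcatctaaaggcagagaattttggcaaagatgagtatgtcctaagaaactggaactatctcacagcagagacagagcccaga
Aldh1a1, downstream start: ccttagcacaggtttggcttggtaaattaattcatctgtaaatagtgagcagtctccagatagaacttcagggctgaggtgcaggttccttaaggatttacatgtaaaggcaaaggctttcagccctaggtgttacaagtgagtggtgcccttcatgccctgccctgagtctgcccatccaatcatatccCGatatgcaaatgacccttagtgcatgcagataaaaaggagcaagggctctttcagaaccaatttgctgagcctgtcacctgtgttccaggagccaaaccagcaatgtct
Aldh1a2: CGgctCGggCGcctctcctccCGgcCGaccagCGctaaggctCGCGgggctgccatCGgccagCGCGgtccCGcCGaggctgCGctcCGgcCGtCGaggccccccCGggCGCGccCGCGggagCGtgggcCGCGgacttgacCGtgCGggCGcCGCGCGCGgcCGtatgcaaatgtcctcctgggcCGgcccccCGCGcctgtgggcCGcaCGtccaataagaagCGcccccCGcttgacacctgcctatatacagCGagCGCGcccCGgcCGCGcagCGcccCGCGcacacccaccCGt
Bnc1: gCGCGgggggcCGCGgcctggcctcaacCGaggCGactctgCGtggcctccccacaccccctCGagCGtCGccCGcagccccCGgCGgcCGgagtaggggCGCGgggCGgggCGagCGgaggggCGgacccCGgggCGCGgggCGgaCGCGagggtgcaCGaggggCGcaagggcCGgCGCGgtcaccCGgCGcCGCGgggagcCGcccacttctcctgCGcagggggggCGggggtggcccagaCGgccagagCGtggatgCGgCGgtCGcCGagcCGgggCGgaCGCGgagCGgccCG
Upk3b: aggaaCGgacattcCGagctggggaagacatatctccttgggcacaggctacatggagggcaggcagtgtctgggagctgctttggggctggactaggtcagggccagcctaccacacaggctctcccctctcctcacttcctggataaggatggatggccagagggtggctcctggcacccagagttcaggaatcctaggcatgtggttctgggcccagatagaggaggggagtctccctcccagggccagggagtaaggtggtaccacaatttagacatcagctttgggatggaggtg

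The windows of Aldh1a2 and Bnc1 held 50 CpGs each, and 99.1% of the 32851 windows in the table held fewer. The Aldh1a1 windows held 3 and 1, and that of Upk3b held 2. Over all windows the median was 7, with quartiles of 3 and 20, and the windows of Tbx18 and Tcf21, not printed, held 15 and 8. In all, 10 motifs were searched for on both strands. AGGTCA, a binding motif of nuclear receptors, was found in the Upk3b window and in 16.3% of all windows. CATTCC, the TEAD motif, was found in the upstream Aldh1a1 window and that of Upk3b, against 14.7% of all windows. GCGTGGG, bound by WT1 and EGR factors, was in the Aldh1a2 window and in 5.04% of all. AGATAA, the GATA motif, was in the downstream Aldh1a1 window and that of Tcf21, against 11.2% of all. GGGCGG, bound by SP and KLF factors, was in the Bnc1 window and in 35.7% of all, and TGACTCA, the AP-1 motif, was in the upstream Aldh1a1 window and in 5.2% of all. The TATA box TATAAA was in none of the 7 windows and in 13.6% of all windows. The same held for CACGTG, an E-box (7.15% of all), for GCGGGAA, an E2F motif (4.6%), and for CAGCTG, another E-box (16.3%). Matches of different motifs overlapped in 0 places of the 7 windows. A match is a run of letters and does not show binding.

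Library totals ran from 3028153 to 6890792 counts, a shallow depth at which a gene under a few CPM (counts per 1000000 counts of the library) has a wide counting error. Rybp had 0.435 CPM in null ES cells and 67.6 CPM in wild type ES cells, 0.297 to 1.21 CPM in the 4 null cultures and 20.4 to 43.8 CPM in the 4 wild type cultures. The summed level of 10 cardiomyocyte genes was 124 and 74.9 CPM in null and 2723 and 2202 CPM in wild type cultures at day 8, and 201 and 264 CPM in null and 1094 and 952 CPM in wild type cultures at day 14. The summed cardiomyocyte level was thus lower in every null culture than in any wild type culture. Nkx2-5, a cardiac transcription factor gene on that list, was not detected beyond 1 count in either genotype: it had 0 counts in null and 1 in wild type cultures on each day. The libraries are of whole cultures, so fewer cells of a type and less RNA per cell cannot be told apart.

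Both retinaldehyde dehydrogenase genes were at or near 0 through day 8 and present at day 14 in both genotypes. Aldh1a1 had 0 counts in both ES libraries. At day 8 it had 0.961 and 0.297 CPM in null cultures (5 counts in all) and 0 and 0.573 CPM in wild type cultures (2 counts in all). At day 14 it had 38.7 and 108 CPM in null cultures, a mean of 73.2 ± 48.9 CPM, and 93.2 and 120 CPM in wild type cultures, a mean of 107 ± 19.2 CPM (SD, n = 2 each). The second null library lay between the wild type ones and the first below both, so the genotypes overlapped. Aldh1a2 had 1.45 CPM in null ES cells and 2.34 CPM in wild type ES cells, and 0.961 and 0.297 CPM in null and 0.991 and 2.86 CPM in wild type cultures at day 8. At day 14 it had 8.46 and 18.0 CPM in null cultures, a mean of 13.2 ± 6.73 CPM, and 15.9 and 27.0 CPM in wild type cultures, a mean of 21.5 ± 7.86 CPM (SD, n = 2 each). Here too the second null library lay within the wild type range and the first below it. Aldh1a7, a close mouse copy of Aldh1a1 with which reads could have been exchanged in counting, had 2.72 and 7.34 CPM in null and 4.45 and 9.71 CPM in wild type cultures at day 14.

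**Figure D1:**
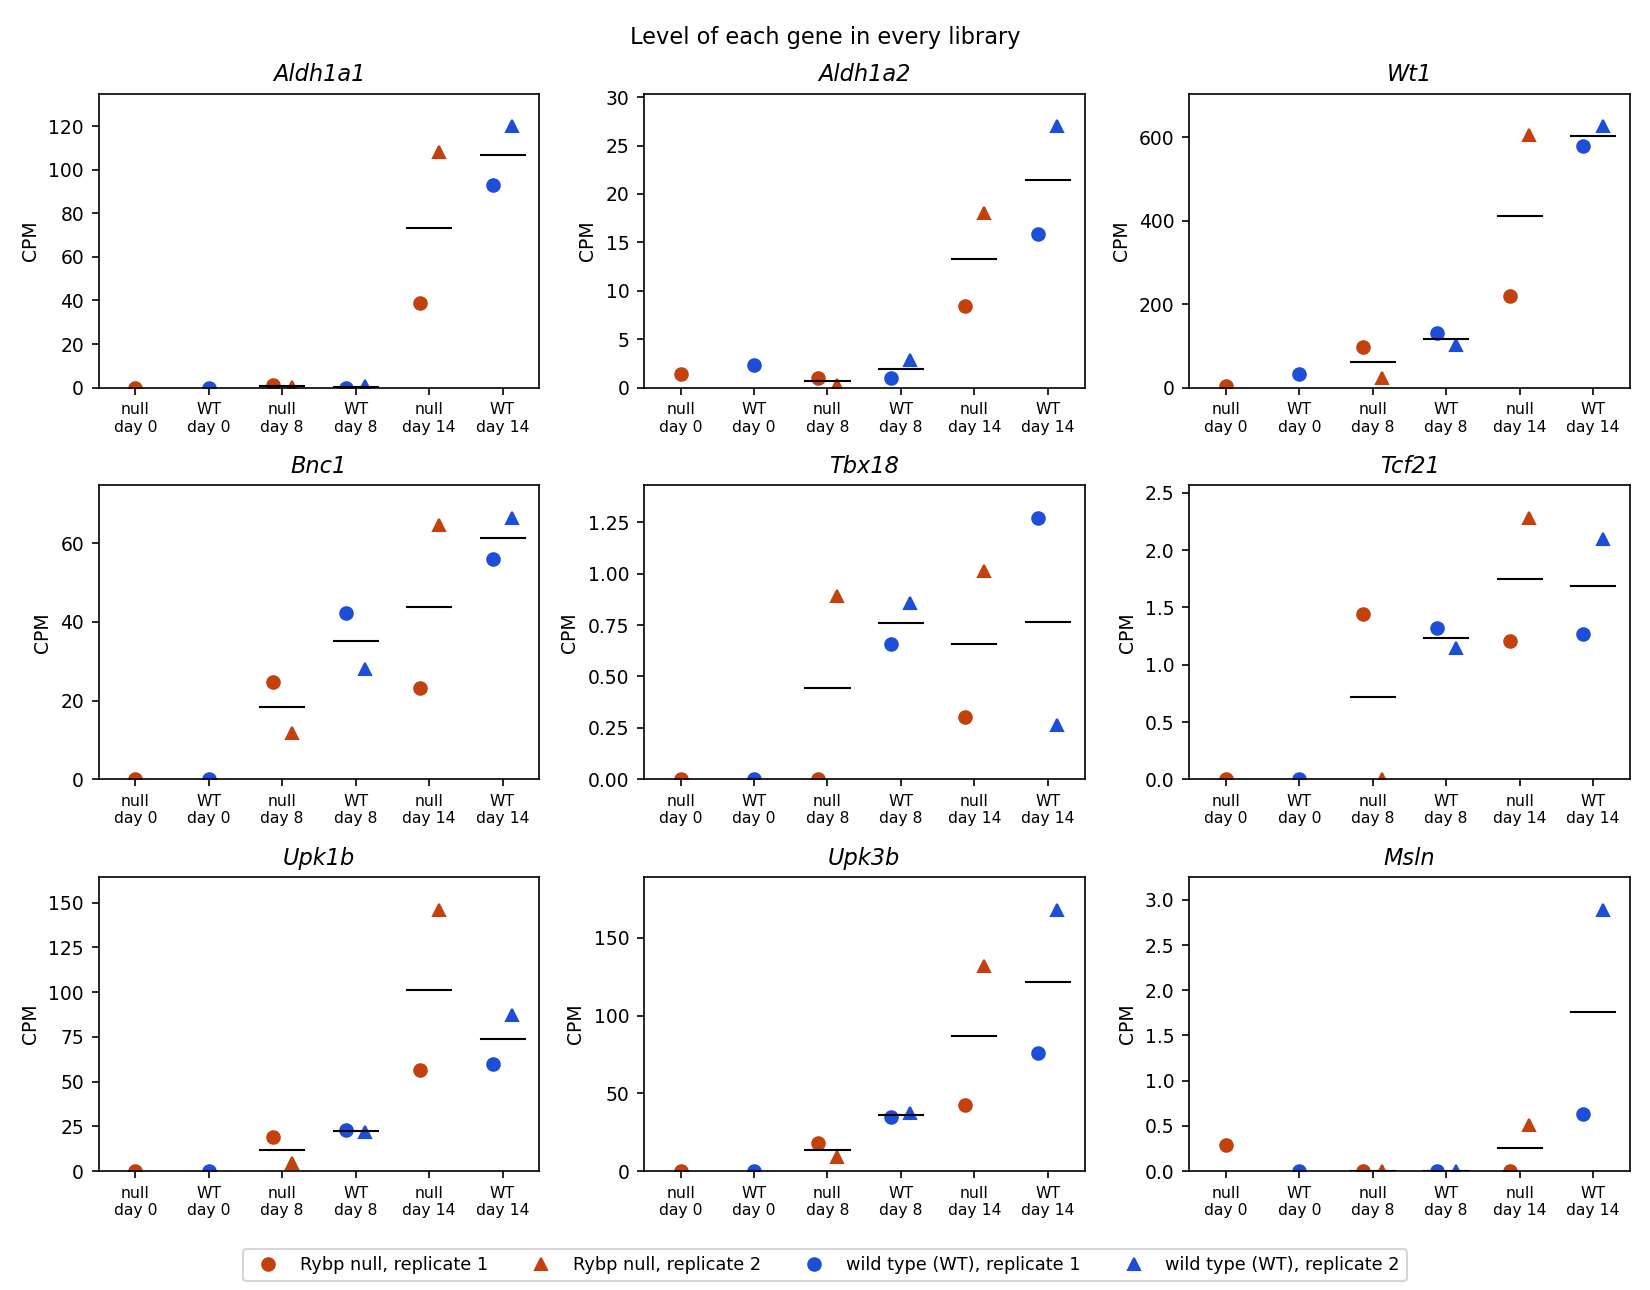
Level of each of the 9 genes in every library, in CPM on linear axes that start at 0 and differ between genes; circles are replicate 1, triangles replicate 2, orange is Rybp null, blue is wild type and black bars are means of 2 libraries. The 6 genes with appreciable levels had their highest group means at day 14, where the first null library was the lowest of the 4, and Tbx18, Tcf21 and Msln stayed under 3 CPM throughout.

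Wt1 was the most abundant of the transcription factor genes and the only listed gene above a few CPM in ES cells. It had 4.35 CPM in null ES cells and 33.6 CPM in wild type ES cells, which is 30 and 115 counts. At day 8 it had 96.3 and 24.1 CPM in null and 130 and 103 CPM in wild type cultures, and at day 14 it had 220 and 605 CPM in null and 579 and 627 CPM in wild type cultures. Both wild type libraries exceeded both null libraries at day 8, and at day 14 the second null library lay between the wild type ones. Bnc1, which encodes the zinc finger protein basonuclin 1, had 0 counts in both ES libraries. It had 24.7 and 11.9 CPM in null and 42.3 and 28.1 CPM in wild type cultures at day 8, and 23.3 and 64.5 CPM in null and 56.0 and 66.4 CPM in wild type cultures at day 14. The genotypes did not overlap at day 8 and did at day 14, and the first null library of day 14 lay within the range of the null libraries of day 8. How many of all genes separated by genotype at day 8, as Wt1 and Bnc1 did, was not counted. The strand setting of the counting is not given in the sources used here; the antisense gene that overlaps exons of Bnc1, 4833418N17Rik, had 1 count in all.

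The uroplakin genes were nearly absent in ES cells and present on both later days. Upk1b had 1 count in null and 0 in wild type ES cells, 19.0 and 4.75 CPM in null and 22.8 and 21.8 CPM in wild type cultures at day 8, and 56.5 and 146 CPM in null and 60.1 and 87.4 CPM in wild type cultures at day 14. At day 14 the null libraries lay on either side of the wild type pair. Upk3b had 0.29 CPM in null ES cells and 0.292 CPM in wild type ES cells, 18.2 and 8.91 CPM in null and 35.0 and 37.5 CPM in wild type cultures at day 8, and 42.3 and 132 CPM in null and 75.7 and 168 CPM in wild type cultures at day 14. Both genes had lower levels in both null libraries than in either wild type library at day 8. The share of all genes that separated in this way was not counted, and neither gene was called between genotypes. The sum of 9 other urothelial markers was 84 and 39.8 CPM in null and 51.2 and 46.1 CPM in wild type cultures at day 8, and 110 and 52.1 CPM in null and 58.5 and 38.3 CPM in wild type cultures at day 14. Of these, the uroplakin genes were low at day 14: Upk3a had 0 counts in both genotypes, Upk2 had 1 in null and 0 in wild type cultures, and Upk1a had 3 in null and 13 in wild type cultures. Some other urothelial markers, which other epithelia also express, were present at day 14. In CPM, Grhl3 averaged 40.2 in null and 26.5 in wild type cultures, and Krt5 averaged 14.2 in null and 7.48 in wild type cultures. Trp63 had 9.06 and 1.52 CPM in null and 6.68 and 7.35 CPM in wild type cultures. Pparg had 30.2 and 8.86 CPM in null and 4.45 and 0.787 CPM in wild type cultures. The remaining markers were low. Krt20 averaged 1.31 CPM in null and 1.19 in wild type cultures, and Foxa1 had 0 counts in null and 12 in wild type cultures. Whether urothelium-like cells contributed to the uroplakin levels was not tested.

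The 3 remaining genes were at the edge of detection and were not tested. Tbx18 had 0 counts in both ES libraries and 0 to 4 counts in each later library, 5 in all in null and 5 in all in wild type cultures at day 14. Tcf21 had 0 counts in both ES libraries and 0 to 9 counts in each later library, with 13 in all in null and 12 in all in wild type cultures at day 14. Tbx18 and Tcf21, which are among the usual epicardial markers, were therefore nearly undetected in cultures in which Wt1 reached 605 CPM in a null library and 627 CPM in a wild type one. Msln had 2 counts in null and 0 in wild type ES cells, 0 in every library at day 8, and at day 14 it had 0 and 2 counts in null and 2 and 11 in wild type cultures. The day 14 ratio for Msln, null over wild type, was 0.147, with a 95% counting interval of 0.0161 to 0.651 that leaves out the spread between cultures; 11 of the 13 wild type counts came from a single library.

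Per kilobase of annotated exon, which allows levels of different genes to be compared, the order in null cultures at day 14 was Wt1 at 66.6 CPM per kb, Upk1b at 48.5, Upk3b at 24.6, Aldh1a1 at 14.8, Bnc1 at 9.45 and Aldh1a2 at 5.84. In wild type cultures at day 14 the order was the same, at 97.3 for Wt1, 35.3 for Upk1b, 34.5 for Upk3b, 21.6 for Aldh1a1, 13.2 for Bnc1 and 9.48 CPM per kb for Aldh1a2. In null cultures the ranges of the 2 libraries overlapped between each neighbouring pair from Wt1 down to Aldh1a2. In wild type cultures Wt1 stood clear of the rest, Upk1b overlapped Upk3b and Upk3b overlapped Aldh1a1. Aldh1a1, Bnc1 and Aldh1a2 did not overlap each other there. Tcf21 was at 0.742 in null and 0.718 CPM per kb in wild type cultures, and Tbx18 and Msln were lower. Exon lengths were those of GENCODE vM21. At day 8 Aldh1a2 averaged 0.278 in null and 0.851 CPM per kb in wild type cultures, and Aldh1a1 averaged 0.127 in null and 0.058 CPM per kb in wild type cultures, while Bnc1 averaged 3.94 in null and 7.57 CPM per kb in wild type cultures. Wt1, Bnc1, Upk1b and Upk3b were thus present on a day when both dehydrogenase genes were low, and Tbx18, Tcf21 and Msln were low as well.

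Of the 9 genes, 6 passed the filter on low counts and were tested with edgeR's quasi-likelihood test, with Benjamini-Hochberg adjustment over 15819 genes and a gene called at an adjusted p under 0.05. From day 0 to day 8, Bnc1, Upk1b and Upk3b rose in both genotypes. The 3 called in null cells compare with 19.0% of all genes called higher and 18.6% called lower, and the same 3 in wild type cells with 21.2% higher and 19.3% lower. These 3 genes had 0 to 2 counts in each ES library. They could rise but hardly fall, so the shares of all genes are no matched background for them. Bnc1 was at least 43.6-fold higher at day 8 in null cells (adjusted p = 0.000871) and at least 39.5-fold higher in wild type cells (adjusted p = 0.000818), against a floor of 3 counts for the ES library at 0. Upk1b was 86.9-fold higher in null cells, with a counting interval of 15.2 to 3469 (adjusted p = 0.0153), and at least 25.3-fold higher in wild type cells (adjusted p = 0.011). Upk3b was 48.5-fold higher in null cells, with an interval of 13.1 to 406 (adjusted p = 0.0238), and 124-fold higher in wild type cells, with an interval of 22.1 to 4930 (adjusted p = 0.012). In null cells, without the first day 8 library, the adjusted p was 0.0616 for Upk1b and 0.154 for Upk3b, and without the second it was 0.0653 for Upk3b. Bnc1 remained called without the first (adjusted p = 0.00564).

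Wt1 was not called between day 8 and day 0. Its log2 fold change, day 8 over day 0, was 3.57 (SE 1.20, adjusted p = 0.0623) in null and 1.58 (SE 0.99, adjusted p = 0.255) in wild type cells. In null cells the adjusted p for Wt1 was 0.0246 without the second day 8 library, between 0.0245 and 0.0489 without either null or either wild type day 14 library, and 0.00391 by DESeq2. The SE is the one implied by the test and restates its p. Each ES group is a single library, assumed to vary like the others.

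From day 8 to day 14 the dehydrogenase genes changed most. In null cultures 4 of the 6 tested genes rose and none fell, where 4.29% of all genes rose and 3.41% fell. In wild type cultures 2 of 6 rose and none fell, where 2.47% of all genes rose and 1.57% fell. The 2 called in wild type cultures were Aldh1a1 and Aldh1a2, which were also among the 4 in null cultures. At day 8 they had 5 counts each in null cultures, and 2 and 13 in wild type cultures. Genes this low at day 8 could rise but hardly fall, so for them the shares of all genes are no matched background. Upk1b and Upk3b, also called in null cultures, had 95 and 106 counts there at day 8. Aldh1a1 rose in null cultures by 6.69 on the log2 scale (SE 0.70, adjusted p = 0.000362), and in wild type cultures the ratio of pooled CPM was 352, with a counting interval of 97.2 to 2916 set by the 2 counts at day 8 (adjusted p = 0.000381). Aldh1a2 rose by 4.23 (SE 0.73, adjusted p = 0.00403) in null and by 3.41 (SE 0.62, adjusted p = 0.0085) in wild type cultures on the log2 scale. The call for Aldh1a2 in wild type cultures ended without the first day 8 library (2.87, adjusted p = 0.105), without the second (4.39, adjusted p = 0.0574) or without the second day 14 library (2.96, adjusted p = 0.107). In null cultures the values moved with single libraries while the calls stood: without the first day 8 library Aldh1a1 gave 7.78 and Aldh1a2 gave 5.32, and without the second day 14 library they gave 5.72 and 3.53.

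The uroplakin genes rose in null cultures, by 3.02 for Upk1b (SE 0.62, adjusted p = 0.0212) and 2.62 for Upk3b (SE 0.65, adjusted p = 0.0493) on the log2 scale. In wild type cultures they gave 1.71 (SE 0.59, adjusted p = 0.18) and 1.74 (SE 0.61, adjusted p = 0.19). Without either null day 14 library Upk3b was called in wild type cultures at an adjusted p of 0.0246 to 0.0255, with the same fold change. The calls in null cultures were close to the threshold. Without the second null day 8 library, the second null day 14 library or either wild type day 8 library, the adjusted p for Upk1b was 0.0543 to 0.056, and the log2 fold change was 2.12 without the second null day 14 library and 4.40 without the first null day 8 library. For Upk3b the adjusted p was 0.0829 to 0.263 without any single library of day 8 or without the second null day 14 library, and the log2 fold change ran down to 1.53 without that last library and up to 3.28 without the first null day 8 library. With no filter on low counts the adjusted p for Upk3b was 0.127.

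Wt1 and Bnc1 were not called between day 14 and day 8 in either genotype. Wt1 gave log2 fold changes of 2.72 (SE 0.76, adjusted p = 0.0993) in null and 2.36 (SE 0.74, adjusted p = 0.185) in wild type cultures, and Bnc1 gave 1.21 (SE 0.48, adjusted p = 0.164) and 0.79 (SE 0.46, adjusted p = 0.449). Without the first null day 14 library both were called in null cultures, Wt1 at 3.29 (adjusted p = 0.0397) and Bnc1 at 1.78 (adjusted p = 0.0199). The estimate of spread is shared by all groups, and the wild type libraries were the closer pairs for Wt1 and Bnc1. Whether this bears on the calls was not tested. Fitted on the wild type libraries of days 8 and 14 alone, all 6 tested genes were called, with adjusted p = 2.29e-08 for Wt1, 9.01e-05 for Upk1b, 0.00862 for Upk3b and 0.0267 for Bnc1.

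**Figure D2:**
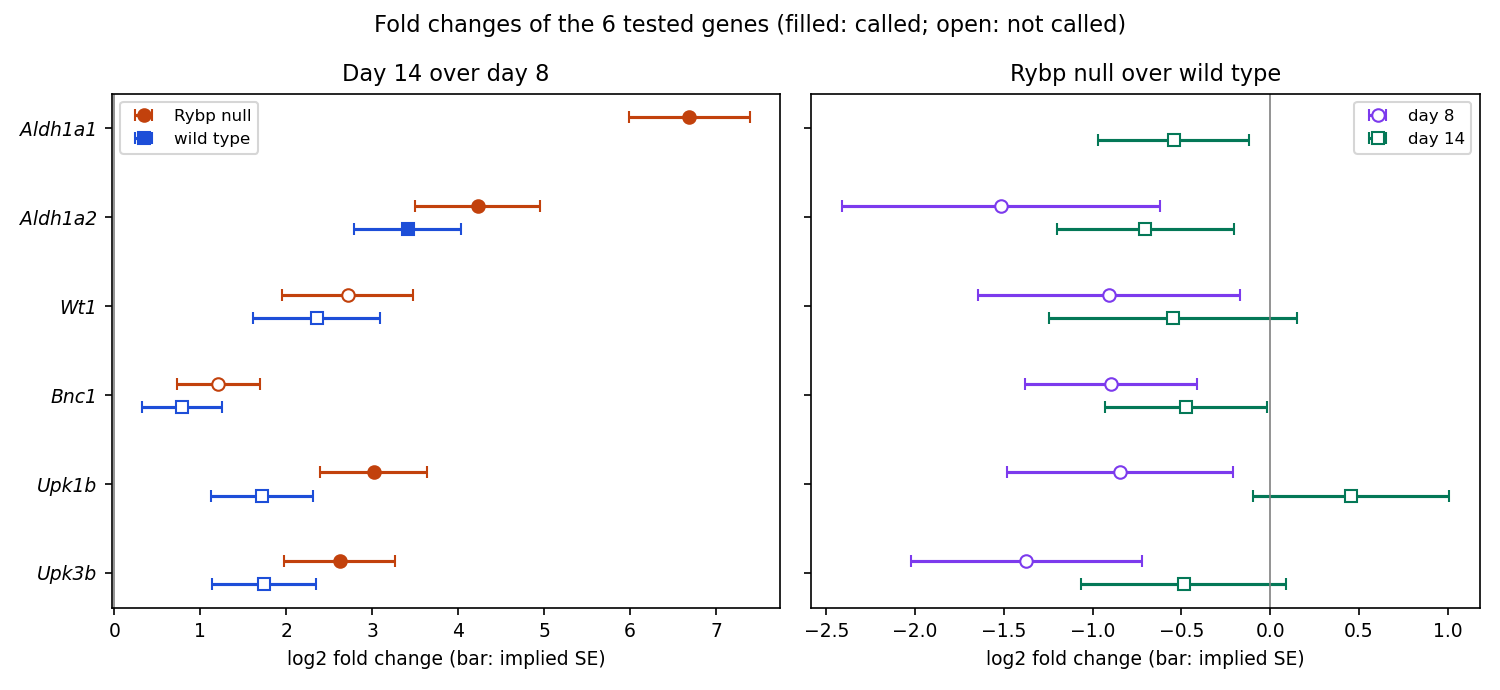
Log2 fold changes of the 6 tested genes for day 14 over day 8 in each genotype (left) and Rybp null over wild type at each day (right); bars are the SE implied by the test, filled symbols are called and open ones are not, and the 2 Aldh1a1 contrasts that rest on 2 counts are not drawn. All day 14 values lie right of 0, the dehydrogenase genes farthest, and every symbol of the genotype comparison is open.

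Between genotypes none of the 6 tested genes was called on either day. At day 8 edgeR called 0 of 6, with 0 at an unadjusted p under 0.05 and 0 called by DESeq2, where 0.506% of all genes were called higher and 0.759% lower in null cultures. The log2 fold changes, null over wild type, were -1.37 for Upk3b (SE 0.65, adjusted p = 0.42), -1.52 for Aldh1a2 (SE 0.90, adjusted p = 0.507), -0.90 for Bnc1 (SE 0.48, adjusted p = 0.465), -0.91 for Wt1 (SE 0.74, adjusted p = 0.677) and -0.85 for Upk1b (SE 0.64, adjusted p = 0.633). In CPM without TMM scaling these 5 genes had lower levels in both null libraries than in both wild type ones. For Aldh1a2 this order is not secure. Its nearest libraries were a null one at 0.961 CPM on 4 counts and a wild type one at 0.991 CPM on 3 counts. The TMM factors of these libraries, 0.997 for the null and 1.038 for the wild type one, are enough to turn it. How many of all genes separated in this way was not counted, so the 5 cannot be set against a background. The tested genes also followed each other across libraries, at a median Pearson r of 0.924. The sizes moved with single libraries while the signs of these 5 stood. Without the first null day 8 library the values were -2.29 for Wt1, -2.24 for Upk1b, -1.58 for Bnc1, -2.04 for Upk3b and -2.62 for Aldh1a2, and without the second they were -0.23 for Wt1, -0.19 for Upk1b, -0.46 for Bnc1, -0.95 for Upk3b and -0.97 for Aldh1a2. Without the first wild type day 8 library Bnc1 was at -0.59, and without the second Aldh1a2 was at -0.54. For Aldh1a1 the ratio rested on 5 counts in null and 2 in wild type cultures and was 2.16, with an interval of 0.354 to 22.7.

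At day 14 edgeR again called 0 of 6, with 0 at an unadjusted p under 0.05 and 0 called by DESeq2, where 0.259% of all genes were called higher and 0.354% lower in null cultures. The log2 fold changes were -0.54 for Aldh1a1 (SE 0.43, adjusted p = 0.68), -0.70 for Aldh1a2 (SE 0.50, adjusted p = 0.638), -0.55 for Wt1 (SE 0.70, adjusted p = 0.839), -0.48 for Bnc1 (SE 0.46, adjusted p = 0.754), 0.46 for Upk1b (SE 0.55, adjusted p = 0.82) and -0.49 for Upk3b (SE 0.58, adjusted p = 0.816). The signs of 5 of the 6 turned with a single library, and that of Aldh1a2 did not, at -1.40 to -0.24 with 1 library left out. Without the first null day 14 library the values were 0.03 for Aldh1a1, 0.02 for Wt1, 0.09 for Bnc1 and 0.12 for Upk3b. Upk3b was also above 0, at 0.22, without the second wild type day 14 library, and Upk1b was at -0.44 without the second null day 14 library. Without that null library Bnc1 was at -1.44, further below 0 than with all libraries. The full ranges of the genes whose sign turned are given in the closing section. A p that misses the threshold does not show that the genotypes are alike: at day 14 the SEs span 0.43 to 0.70 on the log2 scale.

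The difference between the genotype effects at day 14 and at day 8 was tested as an interaction. edgeR called 0 of 6 genes and 0.0% of all genes, with 0 of the 6 at an unadjusted p under 0.05, and DESeq2 called 0 of the 6. The lowest unadjusted p among the 6 was 0.158, for Upk1b at a log2 difference of 1.30 (SE 0.84, adjusted p = 0.916). In ES cells the genotypes were compared without a test, because each had 1 library. Among 10450 genes with at least 5 CPM in either ES library, 1.89% were higher in null cells by 4-fold or more and 0.947% lower by as much. Wt1 was the only listed gene to reach that level, and its ratio, null over wild type, was 0.129 with a counting interval of 0.0836 to 0.195. The 2 null libraries at day 8 themselves differed 4.0-fold for Wt1.

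The spread between the 2 null libraries of a day was shared by the 6 genes. At day 14 the second null library exceeded the first by 1.10 for Aldh1a2 to 1.69 for Upk3b on the log2 scale, and at day 8 it lay below the first, by -0.88 for Aldh1a1 and Aldh1a2 to -2.03 for Wt1. At day 14 in null cultures 95% of all genes lay between -1.56 and 1.37, and 5 of the 6 genes exceeded the upper bound. At day 8 the corresponding range was -1.57 to 1.44, and Wt1 and Upk1b, at -1.94, lay below it. In wild type cultures all 6 lay within the range of all genes, between 0.14 for Wt1 and 1.17 for Upk3b at day 14 and between -0.56 for Bnc1 and 1.17 for Aldh1a2 at day 8.

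**Figure D3:**
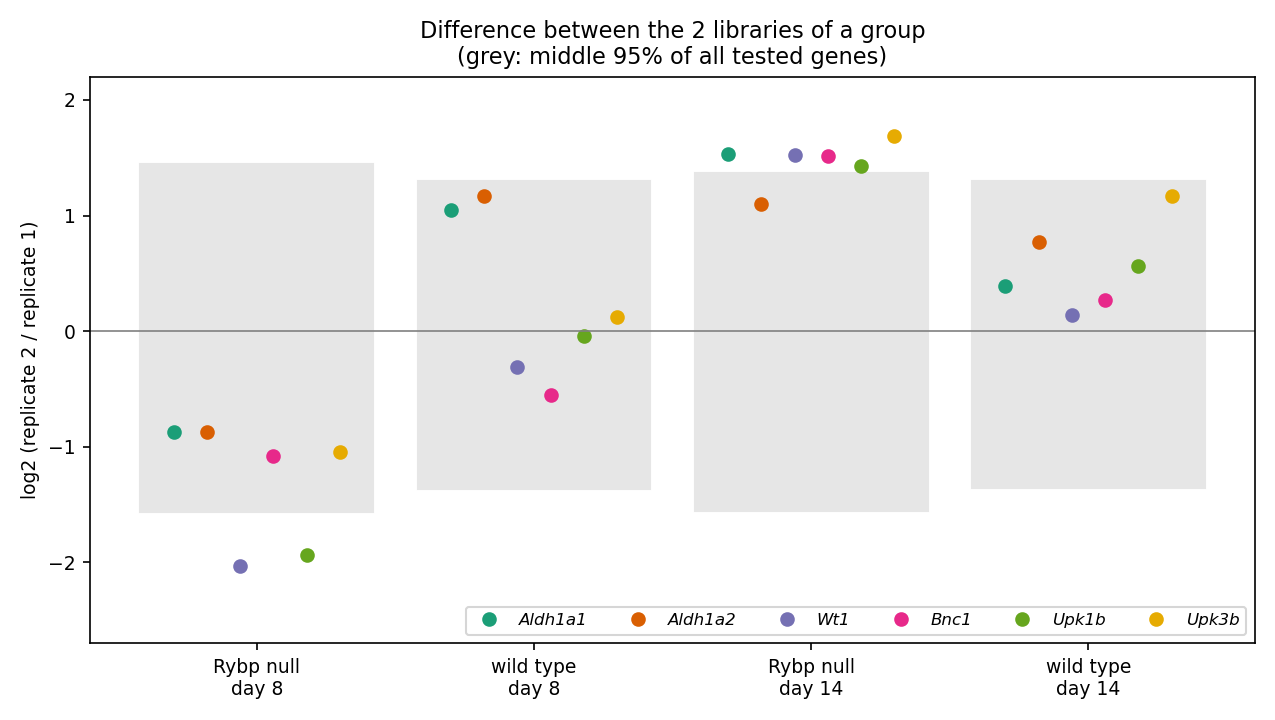
Log2 ratio of replicate 2 over replicate 1 in each group with 2 libraries, for the 6 tested genes (coloured points) and the middle 95% of all tested genes (grey boxes). In null cultures the 6 genes moved together, below 0 at day 8 and above 0 at day 14, where 5 of 6 lie above the grey box; in wild type cultures all lie inside it.

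The sums of some marker lists of other cell types differed between the same null libraries in the opposite direction, and those of others in the same direction. The summed level of 7 epicardial genes, the listed ones without the dehydrogenases, was 160 and 50.5 CPM in null and 232 and 192 CPM in wild type cultures at day 8, and 343 and 951 CPM in null and 774 and 954 CPM in wild type cultures at day 14. The sum of 11 epithelial markers was 164 and 619 CPM in null and 178 and 271 CPM in wild type cultures at day 8, and 714 and 246 CPM in null and 294 and 178 CPM in wild type cultures at day 14. The null library with the lower epicardial sum was thus the one with the higher epithelial sum on both days. The sum of 10 visceral endoderm and liver markers was 51.9 and 240 CPM in null and 191 and 208 CPM in wild type cultures at day 8, and 469 and 106 CPM in null and 301 and 261 CPM in wild type cultures at day 14, the same order. Between the null libraries all 8 tested epithelial genes were higher in the second at day 8 and 0 of 8 at day 14. Pluripotency genes, at 59.3 and 124 CPM in null cultures at day 8 and 66.1 and 30.6 CPM at day 14, also ran opposite to the epicardial genes. The sums of other lists ran with them in null cultures on both days. The kidney and gonad sum was 262 and 144 CPM at day 8 and 293 and 468 CPM at day 14, and the cardiomyocyte sum followed the same order. For epithelial-mesenchymal transition, fibroblast and mural genes the sum was 15438 and 9288 CPM at day 8 and 18260 and 19415 CPM at day 14. The somite sum, of genes at a few CPM or less, was 5.52 and 0.891 CPM at day 8 and 1.51 and 5.82 CPM at day 14. Gene by gene, the day 14 order held for a minority of the tested genes outside the kidney and gonad list. There 3 of 5 kidney and gonad and 2 of 8 cardiomyocyte genes were higher in the second null library. So were 7 of 18 transition, fibroblast and mural and 1 of 3 somite genes. At day 8 these were 0 of 5, 3 of 8, 4 of 18 and 0 of 3. The urothelial sum was higher in the first null library and that of the other mesothelial genes in the second on both days. Of the visceral endoderm genes Amn was at 0 counts in every group, and of the epithelial genes Krt17 was at 0 at day 14 in both genotypes. Whether a different mix of cells accounts for the spread of the epicardial genes was not tested.

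**Figure D4:**
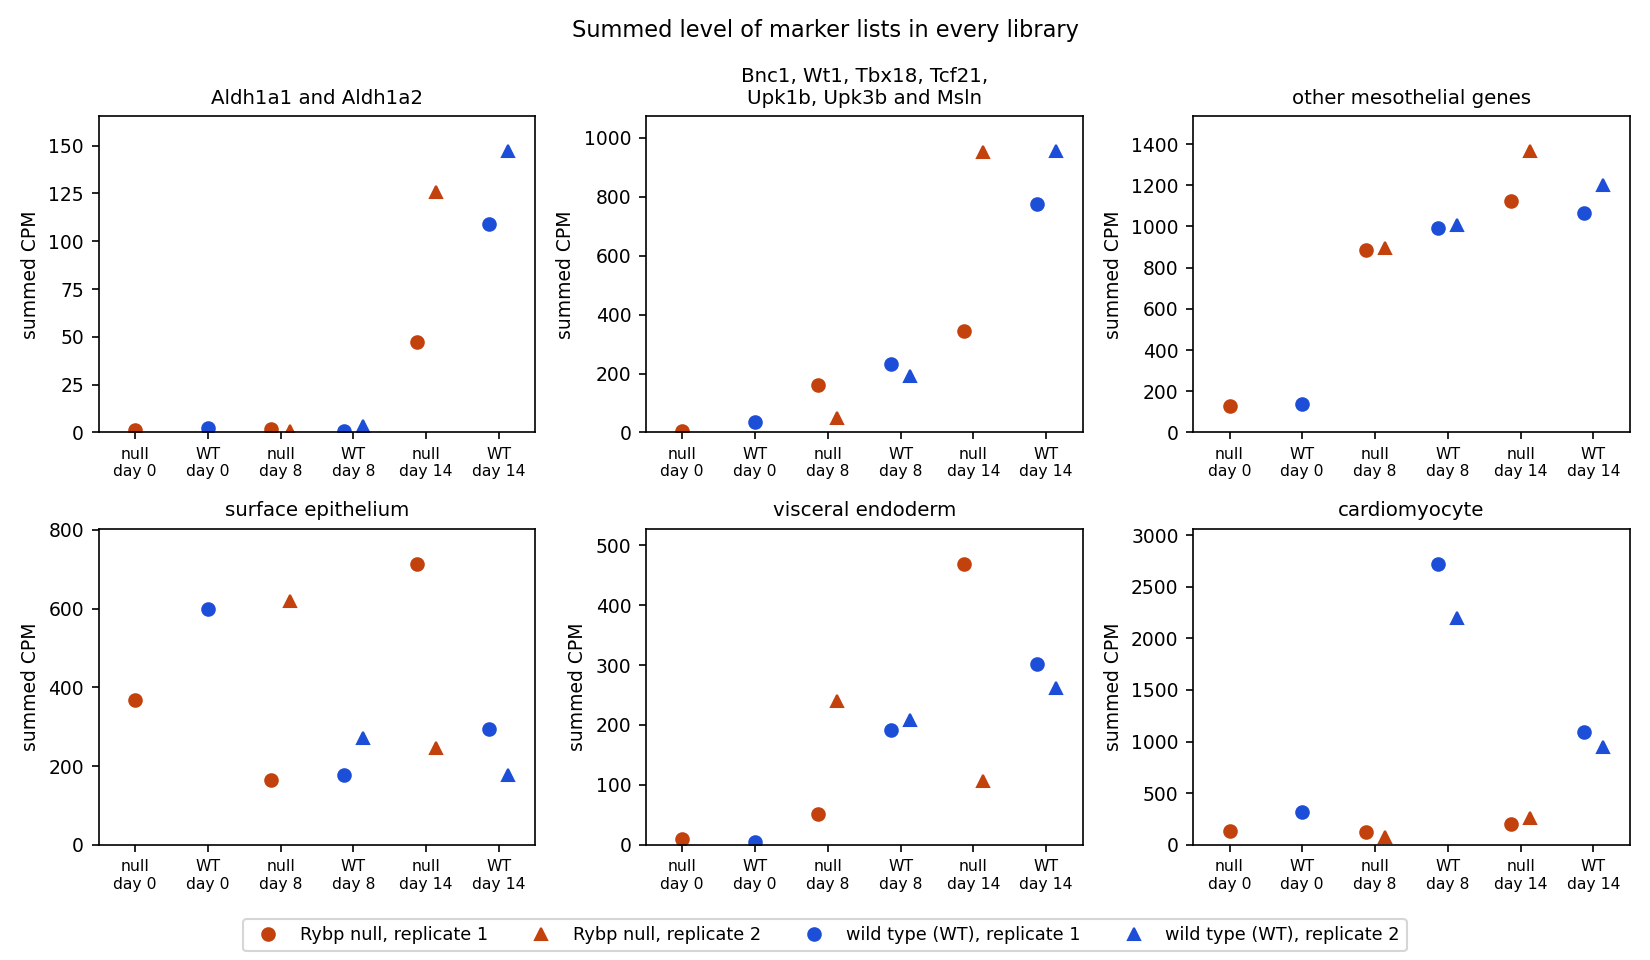
Summed CPM of marker lists in every library, on linear axes that start at 0; circles are replicate 1, triangles replicate 2, orange is Rybp null and blue is wild type. In null cultures at days 8 and 14 the library with the lower epicardial sum has the higher epithelial and visceral endoderm sums, and the cardiomyocyte sum there is 74.9 to 264 CPM in null and 952 to 2723 CPM in wild type cultures.

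The rest of the retinoic acid pathway was described with 42 other genes, of which 32 were tested. Between genotypes 1 of them was called lower and 0 higher at day 8, where 9 of the 32 had an unadjusted p under 0.05, against 2122 of all 15819 genes. At day 14 edgeR and DESeq2 each called 0, and 5 of the 32 had an unadjusted p under 0.05, against 2038 of all genes. By DESeq2 the genes called at day 8 were Dhrs3, Meis1 and Meis2. The called gene was Dhrs3, a retinaldehyde reductase that turns retinaldehyde back to retinol and so limits retinoic acid synthesis. It had 51.1 and 41.0 CPM in null and 133 and 114 CPM in wild type cultures at day 8, with no overlap, and fell by 1.40 on the log2 scale (SE 0.30, adjusted p = 0.0473). The call ended without any of the 4 libraries of that day in turn, with a log2 fold change between -1.61 and -1.22 and an adjusted p up to 0.353. At day 14 Dhrs3 had 222 and 372 CPM in null and 264 and 432 CPM in wild type cultures, and was not called. The median log2 fold change of the 32 genes was 0.042 at day 8 and -0.016 at day 14, against 0.012 at day 8 and -0.015 at day 14 for all genes.

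Among the receptors, Rarg, which encodes retinoic acid receptor gamma, had the lowest p and was not called (5.28 and 6.54 CPM in null cultures at day 8, 1.32 and 1.72 CPM in wild type ones; null over wild type 1.94 on the log2 scale, SE 0.51, adjusted p = 0.0939). Among genes induced by retinoic acid that gene was Meis1, a homeobox gene, with 70.4 and 46.0 CPM in null and 110 and 122 CPM in wild type cultures at day 8 (null over wild type -0.97 on the log2 scale, SE 0.23, adjusted p = 0.0713). Among the enzymes that degrade retinoic acid it was Cyp26a1, with 10.9 and 1.77 CPM in null and 1.59 and 2.62 CPM in wild type cultures at day 14 (null over wild type 1.50 on the log2 scale, SE 0.93, adjusted p = 0.569). Aldh1a3, the third retinaldehyde dehydrogenase gene, had 3.62 and 3.04 CPM in null and 1.27 and 0.787 CPM in wild type cultures at day 14.

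**Figure D5:**
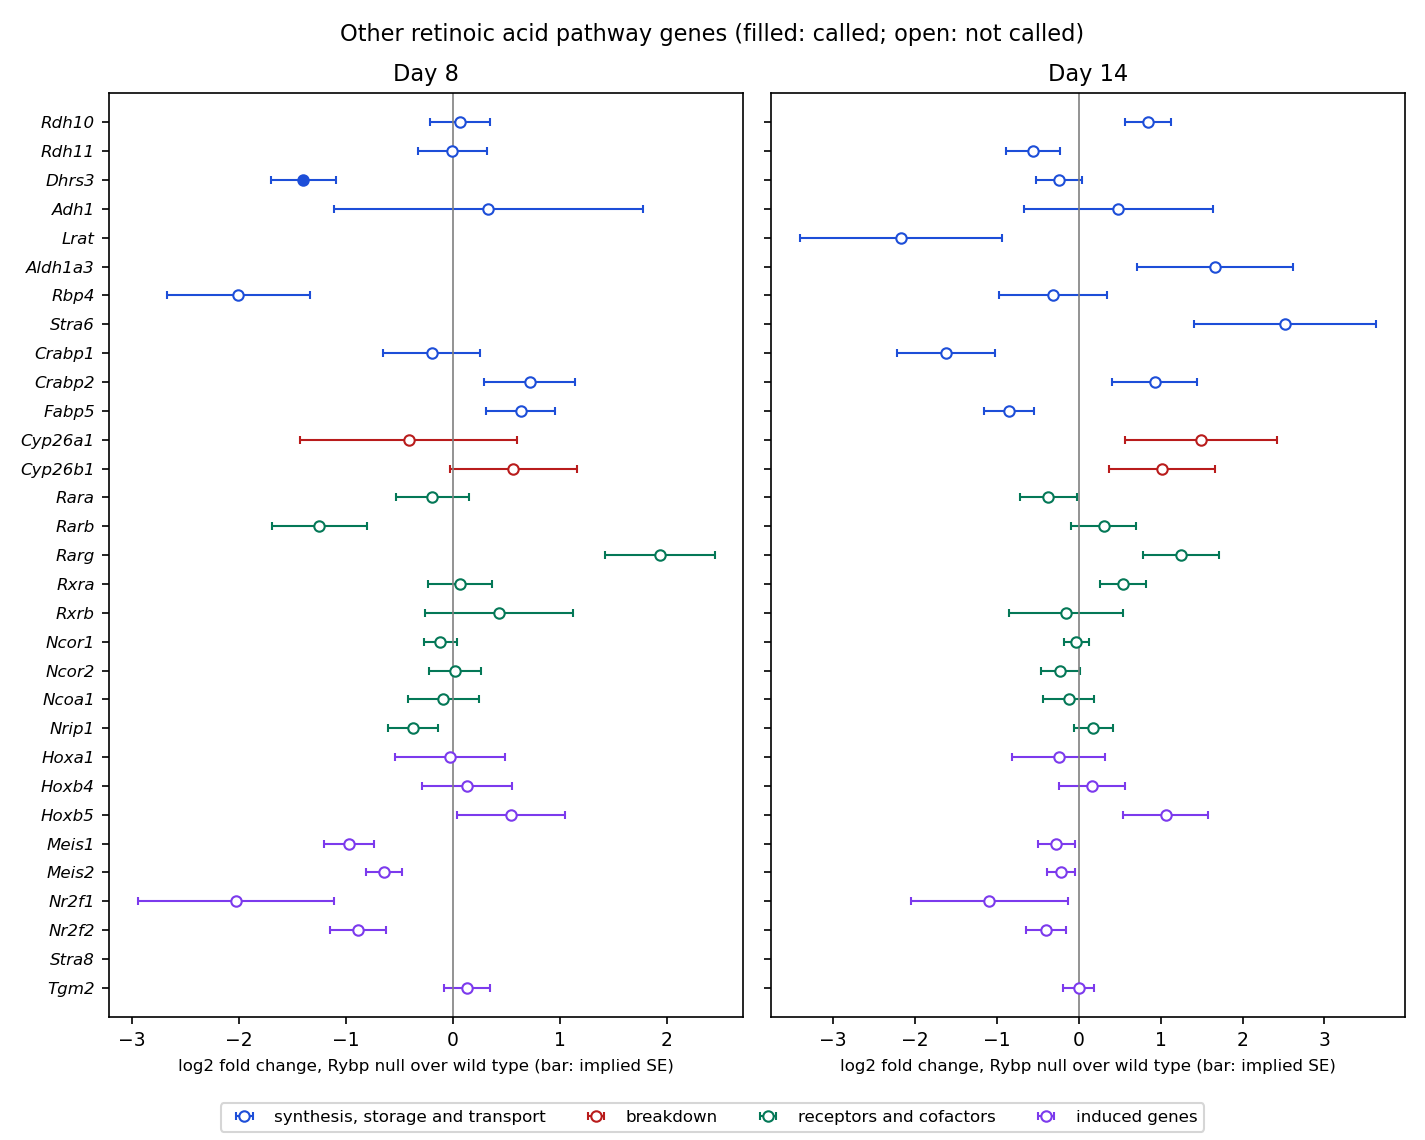
Values of Rybp null over wild type, as log2 fold changes, for other tested retinoic acid pathway genes at days 8 and 14, coloured by role; bars are the SE implied by the test, filled symbols are called, and genes with 3 or fewer counts in a group of that day are not drawn. Dhrs3 at day 8 is the only filled symbol.

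With time more of the pathway changed. From day 8 to day 14, 6 of the 32 genes rose and 2 fell in null cultures, and 5 rose and 0 fell in wild type cultures, where 4.29% of all genes rose and 3.41% fell in null and 2.47% rose and 1.57% fell in wild type cultures. Dhrs3 rose by 2.64 in null (adjusted p = 0.000431) and 1.48 in wild type cultures (adjusted p = 0.014) on the log2 scale. Tgm2, a transglutaminase gene induced by retinoic acid, rose by 2.69 in null (adjusted p = 3.47e-05) and 2.82 in wild type cultures (adjusted p = 6.15e-05). Nr2f2, an orphan nuclear receptor gene, rose by 1.79 in null (adjusted p = 0.00151) and 1.31 in wild type cultures (adjusted p = 0.0116). In null cultures the receptor genes Rarb, by 1.93 (adjusted p = 0.0178, and 0.0961 at most with 1 library left out), and Rxra, by 1.12 (adjusted p = 0.0332), also rose, and Crabp1 and Crabp2, carriers of retinoic acid inside the cell, fell by 2.45 (adjusted p = 0.0192) and by 1.66 (adjusted p = 0.0416). The calls of Rxra and Crabp2 were the least secure: that of Rxra ended with each of the 8 day 8 and day 14 libraries left out in turn (adjusted p = 0.051 to 0.177), that of Crabp2 with 7 of them (up to 0.217). That of Crabp1 ended without the second null library of day 8 or of day 14 (up to 0.144). Of these genes, Tgm2 stayed called without any 1 library in both, Dhrs3 and Nr2f2 did so in null cultures, and the calls in wild type cultures ended without some of that genotype's own libraries for Dhrs3 (adjusted p up to 0.18) and Nr2f2 (up to 0.156). In wild type cultures Fabp5, which encodes a fatty acid binding protein that also carries retinoic acid, rose by 1.53 (adjusted p = 0.0194), a call that ended without either wild type day 8 library or the second of day 14 (up to 0.217). From day 0 to day 8, before either listed dehydrogenase gene was above a few CPM, 15 of the 32 rose and 3 fell in null and 16 rose and 3 fell in wild type cells, where 19.0% of all genes rose and 18.6% fell in null and 21.2% rose and 19.3% fell in wild type cells. The homeobox genes Meis1 and Meis2 rose in both.

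Of 20 other genes listed for epicardium and mesothelium 19 were tested; Muc16 had no ID match. From day 8 to day 14, 10 rose and 1 fell in null cultures (4.29% and 3.41% of all genes) and 4 rose and 2 fell in wild type cultures (2.47% and 1.57% of all genes). Gpm6a, a membrane glycoprotein gene, had 28.7 and 89.8 CPM in null and 25.1 and 45.4 CPM in wild type cultures at day 14 after 1.65 to 2.40 CPM at day 8, and rose in both (adjusted p = 0.000881 in null, 0.00438 in wild type). Lrrn4, which marks mesothelium, had 62.5 and 185 CPM in null and 81.7 and 108 CPM in wild type cultures at day 14, and rose in both (adjusted p = 0.0372 in null, 0.046 in wild type). The call of Lrrn4 was not stable: in null cultures it ended without any single day 8 library of either genotype or without the second null day 14 library (adjusted p up to 0.245, log2 fold change down to 0.73), and in wild type cultures without any single day 8 library of either genotype or either wild type day 14 library (up to 0.288). The call of Gpm6a in wild type cultures ended without either wild type day 8 library (up to 0.0703). In both of these genes the first null library was again the lower. Sema3d and C3 also rose in both genotypes; the call of Sema3d in wild type cultures ended without either wild type day 8 library or the second of day 14 (up to 0.149), and that of C3 in null cultures without the first null day 8 library (0.0522). Between genotypes 0 of the 19 were called at day 8 by edgeR and by DESeq2. On that day 4 had an unadjusted p under 0.05, against 2122 of all 15819 genes. At day 14 edgeR called 1, as lower in null cultures, where 0.354% of all genes were called lower. That gene, Itga4, encodes the integrin alpha 4 chain by which epicardial cells adhere to the heart. It had 17.5 and 15.4 CPM in null and 54.7 and 50.4 CPM in wild type cultures at day 14, and fell by 1.69 on the log2 scale (SE 0.25, adjusted p = 0.0127). The call ended without any of the 4 libraries of day 14 in turn, with a log2 fold change between -1.74 and -1.63 and an adjusted p up to 0.105. DESeq2 called C3 and Krt18 beside Itga4. By edgeR the unadjusted p at day 14 was also under 0.05 for C3, lower in null cultures. The same held for Krt8, Krt18, Krt19, Pdpn, Anxa8 and Basp1, all higher in null cultures. Of all genes 2038 were under 0.05 on that day.

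Between genotypes edgeR called no gene of the lists for fibroblast and mural, urothelial, kidney and gonad, and somite cells. It did call genes of the lists for other cell types. Of 18 tested genes of epithelial-mesenchymal transition, fibroblasts and mural cells, none was called between genotypes by edgeR. At an unadjusted p under 0.05 there were 5 at day 8 and 3 at day 14. Of all 15819 genes 2122 were under it at day 8 and 2038 at day 14. The lowest p was that of Acta2, smooth muscle actin, with 640 and 326 CPM in null and 974 and 875 CPM in wild type cultures at day 8 (null over wild type -0.91 on the log2 scale, adjusted p = 0.138), the only 1 of the 18 called by DESeq2. None was called by edgeR or DESeq2 on either day among 4 tested urothelial, 5 tested kidney and gonad and 3 tested somite genes, with at most 2 of a list at an unadjusted p under 0.05. Their lowest p values were those of Pparg at day 14 (adjusted p = 0.102), Emx2 at day 14 (adjusted p = 0.329) and Pax1 at day 8 (adjusted p = 0.0929). Kidney and gonad also express Wt1, and the markers of those tissues were mixed at day 14. Amh and Foxl2 were at 0 counts in both genotypes, and Nphs1, of the podocyte, had 1 count in null and 3 in wild type cultures. Synpo, which podocytes and other cells express, had 279 and 443 CPM in null and 237 and 216 CPM in wild type cultures and made up most of the list's sum of 293 and 468 CPM in null and 250 and 233 CPM in wild type cultures. Osr1 had 4.23 and 12.1 CPM in null and 5.41 and 9.71 CPM in wild type cultures. Emx2 had 3.02 and 11.4 CPM in null and 1.59 and 2.62 CPM in wild type cultures. The part of such cells in the Wt1 level was not tested. Over all genes 0.506% were called higher and 0.759% lower in null cultures at day 8, and 0.259% higher and 0.354% lower at day 14. Krt7 and Elf3 were called higher among 8 tested epithelial genes at day 8. Afp was called lower among 9 tested visceral endoderm genes on both days, with Apoa1 at day 8. Dppa5a and Esrrb were called higher among 7 tested pluripotency genes at day 8. All 8 tested cardiomyocyte genes were called lower at day 8 and 5 of 8 at day 14, with Myl7, Myh6, Myh7 and Actc1 furthest at day 8 and Actc1, Myh6, Myh7 and Ttn at day 14.

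Over the 8 libraries of days 8 and 14, the log2 CPM of the 6 tested genes correlated with each other at a Pearson r of 0.649, for Bnc1 with Aldh1a1, to 0.965, for Wt1 with Upk1b, with a median of 0.924 over 15 pairs. These points share library and day, so no p is given. The genes whose levels followed each of them most closely, among tested genes averaging at least 5 CPM, were Bdnf (0.991), Ehd3 (0.991) and Egfr (0.99) for Wt1. For Bnc1 they were Lrp1 (0.981), Filip1l (0.974) and Hist1h1c (0.972). For Upk1b they were Cdc42ep3 (0.986), Gpc3 (0.984) and Sparc (0.984), and for Upk3b they were Efna5 (0.993), Net1 (0.99) and Dock11 (0.986). For Aldh1a1 they were Kank4 (0.993), Ptprq (0.992) and Tmem59 (0.987), and for Aldh1a2 they were Megf6 (0.988), Slc4a4 (0.985) and Sema3d (0.985), the last a gene of the mesothelial list.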

How the data were processed

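The count table was deposited by the authors as whole numbers of reads for each Ensembl gene, not normalised. The submitters' processing notes name TopHat, HTSeq and DESeq, and mm9 as genome build, with no version of a tool. Neither the annotation release nor the strand setting is stated. Per the labels' protocols, RNA was extracted with TRIzol, and NuGEN Ovation and Encore kits were used for the libraries. Symbols came from a gene name table matched on Ensembl ID (30946 of 36191 IDs). Exon lengths and overlaps came from GENCODE vM21 (GRCm38), another build than mm9.

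Counts were tested with edgeR 4.0.16 in R 4.3.3. The function filterByExpr with a minimum count of 10 left 15819 genes. After TMM scaling, a robust quasi-likelihood model with 6 genotype-by-day groups was fitted to all 10 libraries, with 4 residual degrees of freedom and a common biological coefficient of variation of 0.214. Tests were two-sided, with Benjamini-Hochberg adjustment within each comparison. The SE was obtained from the log2 fold change and F. CPM are relative to the library total, without TMM. Pooled ratios carry exact 95% intervals. A group at 0 was set to a floor of 3 counts over its libraries together, and no fold is given where both groups held 3 or fewer. Intervals and floors cover counting error only. The scripts were tested on simulated counts. Alternatives were DESeq2 1.42.0, its size factors, no filter, only the groups compared, a replicate block, and leaving out each library of days 8 and 14.

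The 9 genes and the 13 other lists were chosen with earlier results of these data known. All 9 genes are named whatever their p. Of each other list those called between genotypes are named, at most 4 per day by size of fold change, or else the gene with the lowest p. For closeness of pattern the 3 genes with the highest Pearson r are named. Genes named for changes between days, genes called by DESeq2 alone, Aldh1a3, Aldh1a7 and the single urothelial, kidney and cardiac markers were chosen after their values were seen. The values of 1 gene of the retinoic acid lists are not reported here; it is counted in the lists' totals.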

Additional observations from a re-analysis of the deposited data

How the results depend on the processing

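The number of listed genes called between genotypes was 0 at day 8, at day 14 and for the interaction under every alternative run. Over all genes, without the filter on low counts 708 were called at day 8, 637 at day 14, 65 for the interaction, 1892 for day 14 against day 8 in null and 1244 in wild type cultures. With only the groups compared in the fit these were 120 at day 8, 555 for day 14 against day 8 in null and 1851 in wild type cultures, where 6 of the listed genes were called in place of 2. DESeq2 called 200 genes at day 14 and 8 for the interaction. The cause of these shifts was not tested. With 1 library left out at a time, the calls over all genes ran from 28 to 324 at day 8, 14 to 301 at day 14, 0 to 2 for the interaction, 613 to 1243 for day 14 against day 8 in null and 108 to 935 in wild type cultures. The listed genes called ran from 1 to 4 for day 8 against day 0 in null cells, 2 to 6 for day 14 against day 8 in null and 1 to 3 in wild type cultures. Log2 fold changes that changed sign in those fits ran, at day 8, from -0.05 to 4.39 for Aldh1a1. At day 14 they ran from -1.44 to 0.09 for Bnc1, -1.51 to 0.02 for Wt1, -0.44 to 1.00 for Upk1b, -1.58 to 0.22 for Upk3b and -1.52 to 0.03 for Aldh1a1. For the interaction they ran from -0.55 to 1.10 for Bnc1, -0.60 to 1.74 for Wt1, -0.21 to 1.59 for Upk3b and -0.17 to 1.91 for Aldh1a2. For day 8 against day 0 in wild type cells they ran from -1.43 to 0.09 for Aldh1a2 and from 0.00 to 4.21 for Aldh1a1, a fitted value on 2 counts. Upk3b also lost its calls in null cells without the filter (adjusted p = 0.0781 for day 8 against day 0, 0.127 for day 14 against day 8). Bnc1 gained a call in null cultures for day 14 against day 8 without the filter (0.00165), and Upk1b in wild type cultures (0.035). DESeq2 called Wt1 in null cultures for day 14 against day 8 (0.0191) and Upk3b in wild type cultures (0.0143). Scaling by DESeq2 size factors changed no call of a listed gene.

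Replicate numbers of the 2 genotypes share only a number: their differences correlated at 0.065 at day 8 and 0.16 at day 14 over 15819 genes, with only 2 pairs. With the replicate block, 0, 0 and 0 listed genes were called at day 8, at day 14 and in the interaction, 4 in null and 2 in wild type cultures between days 14 and 8, and, in the same order, 138, 74, 0, 985 and 571 of all genes. With library totals of 3028153 to 6890792 counts, genes under a few CPM such as Tbx18, Tcf21 and Msln cannot be compared.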
